A study of Homo sapiens with 6 samples.

Results

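The genes described here are 32 transcripts of the p53 response, chosen by name. They are regulators of p53, kinases that signal DNA damage, and genes listed as p53 targets. The listed targets act in cell cycle arrest, DNA repair, metabolism and cell death, and whether p53 drives them in these cells was not tested. All 32 had a row among the 15802 genes of the deposited table. The cells were SC1, an established line of human B-cell lymphoma, and received either bryostatin (1 nM) or the solvent DMSO before bulk RNA sequencing. Each group held 3 libraries, named bryostatin 1 to 3 and DMSO 1 to 3. Both groups are of the same single line, the labels name no genetic change in either, and how long the cells were treated is not given in the sources used here. Whether replicates came from separate cultures is not stated, so a p-value here reflects spread among libraries that may be technical. The gene that encodes p53 was not on the list and is not analysed here, nor are the p53 status of the line and the p53 protein level.

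The p53 protein is a transcription factor that is kept low by MDM2 and MDM4 and stabilised when the kinases ATM, CHEK1 and CHEK2 report damaged DNA. It then raises genes that arrest the cell cycle, repair DNA, adjust metabolism or start apoptosis, and MDM2 among its targets closes a feedback loop. Several of the listed genes answer to other inputs, such as FOXO factors for the cyclin CCNG2 and the sestrins, the stress factor ATF4 for SESN2, and NF-kB for GADD45B. Bryostatin, a marine macrolide, occupies the site of protein kinase C that normally senses diacylglycerol.

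Total expected counts ranged from 18162161 to 18915394 per library. Of 6 B-cell markers all were detected, with a summed level of 2289 to 2363 TPM (transcripts per 1000000, a per-length scale) in DMSO and 2970 to 3435 TPM with bryostatin. The summed level of T-cell and NK-cell markers was at most 0.14 TPM and that of myeloid markers at most 0.78 TPM in any library, and markers of epithelial, stromal or endothelial cells summed to at most 4.50 TPM. Bryostatin 1 stood apart from its group: its median distance from the other 2 bryostatin libraries was 0.29 on the log2 scale over all tested genes. Bryostatin 2 and 3 were at 0.16 and 0.15 from their group mates, which include bryostatin 1. A DMSO library was at 0.07 to 0.09 from its group mates. Values with and without bryostatin 1 are therefore given. The fit without it sets 2 bryostatin libraries against 3 DMSO libraries. Bryostatin 1 was singled out after its distance was seen. The p-values without bryostatin 1 depend on that choice and may be too small.

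The promoters of the members were searched for the p53 sequence motif. Promoters of 250 bases before to 50 after a start were found for 27 members in the RefSeq sequences (GRCh38.p14), and not for GADD45A, RRM2B, TNFRSF10B, PHLDA3 and TP53INP1. The 10-base p53 half-site, a part of the full p53 consensus element, was searched on both strands. Bases outside this span were not searched, so a member without the half-site here may hold it elsewhere. The half-site was found for PLK2, SESN1, DDB2, AEN and FDXR, and in 6.63% of all 35116 promoters of this length. That share counts promoter entries, whereas members were counted by gene. The starts used for SESN1, DDB2 and AEN lay inside their gene spans (108984309 to 109094846, 47214454 to 47239217 and 88604683 to 88632281), not at the outer end. The windows of 30 bases around the half-site are shown because they hold the letters that match it, with the half-site in capitals. They run from 5′ to 3′ on the strand of the gene. DDB2 held 2 half-sites next to each other.
PLK2, chr5:58460199-58460228, minus strand: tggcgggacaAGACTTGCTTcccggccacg
SESN1, chr6:109009018-109009047, minus strand: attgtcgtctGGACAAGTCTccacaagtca
DDB2, chr11:47214974-47215003, plus strand: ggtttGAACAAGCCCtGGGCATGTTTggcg
AEN, chr15:88621296-88621325, plus strand: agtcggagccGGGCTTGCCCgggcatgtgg
FDXR, chr17:74872986-74873015, minus strand: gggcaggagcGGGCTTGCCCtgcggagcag

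The CCNG2 promoter is shown whole because CCNG2 is the member that passed. Its capitals mark CACGTG, the palindromic E-box, which 7.26% of all promoters held and which was also found for AEN and GADD45B.
CCNG2, chr4:77156957-77157256, plus strand: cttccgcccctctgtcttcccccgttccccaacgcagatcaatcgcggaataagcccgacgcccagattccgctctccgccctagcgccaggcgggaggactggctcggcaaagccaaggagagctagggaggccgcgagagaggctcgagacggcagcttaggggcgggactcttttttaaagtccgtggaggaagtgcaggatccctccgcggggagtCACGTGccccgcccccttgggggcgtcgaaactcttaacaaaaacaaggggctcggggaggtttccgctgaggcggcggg
The FOXO element GTAAACA, present in 3.42% of promoters, was found for BTG1 alone among the members, the AP-1 element TGANTCA (7.71% of promoters) for MDM2 alone, and the cyclic AMP element TGACGTCA (1.85%) for PPM1D alone, each searched on both strands. A match of letters is a description and shows no binding.

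The question put to bryostatin and DMSO libraries was which of these transcripts differ after exposure to a protein kinase C ligand. CCNG2 rose 2.65-fold, and no other member passed in either direction. In bulk RNA, fewer cells that express a gene and less of its RNA per cell cannot be told apart. Of 31 members with enough counts to be tested, 1 rose, 0 fell and 30 did not pass in edgeR's quasi-likelihood test (Benjamini-Hochberg adjusted p under 0.05 over 11613 genes), and SPATA18 was not tested. The member share called higher was 3.23%, beside 3.72% of all tested genes called higher, 0.835% called lower and 4.56% in either direction, so the share of risers was near that of all genes. Before adjustment 5 members were higher and 2 lower at p under 0.05, with 18.7% of all tested genes in either direction. The median log2 fold change of the tested members was 0.10, beside 0.00 (-0.00139) for all tested genes. For 20 of the 31 the 95% interval of the change lay inside 1.5-fold in both directions, as it did for 65.7% of all tested genes.

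**Figure D1:**
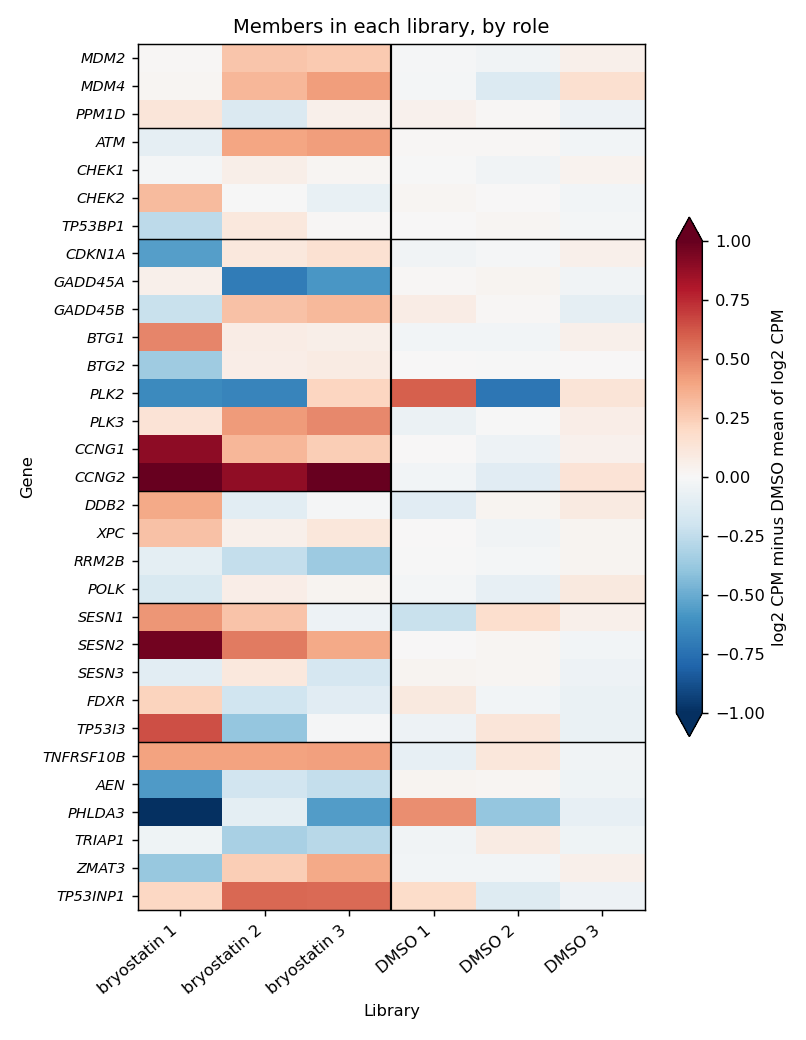
Heat map of the 31 tested members (rows, by role: p53 inhibitors, damage signalling, arrest, repair, metabolism, death) in the 6 libraries (columns). Colour is log2 CPM minus the mean log2 CPM of the DMSO libraries, capped at 1 in either direction. The CCNG2 row is red in all 3 bryostatin libraries, while bryostatin 1 differs in colour from bryostatin 2 and 3 in many rows.

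In levels per length, the members spanned 1.03 to 127 TPM without treatment. TRIAP1 was highest at 127 ± 3.36 TPM (mean ± SD, n = 3 DMSO libraries), followed by BTG2 at 124 ± 2.99 TPM, within their spread of each other. CDKN1A at 81.8 ± 3.81 TPM, CHEK1 at 77.6 ± 2.38 TPM and CCNG1 at 74.3 ± 4.06 TPM came next, and of these CHEK1 and CCNG1 differed by less than the SD of CCNG1. AEN at 67.8 ± 1.26 TPM, RRM2B at 53.2 ± 1.86 TPM, BTG1 at 47.1 ± 2.34 TPM and MDM2 at 39.9 ± 2.02 TPM followed. The lowest tested were SESN3 at 1.75 ± 0.0361 TPM, PLK2 at 1.39 ± 0.597 TPM and PHLDA3 at 1.03 ± 0.321 TPM. SPATA18, a mitochondrial quality-control gene, had 1 read in bryostatin 3, 1 in DMSO 2 and 0 in the other 4 libraries.

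Among the arrest and antiproliferative genes, CCNG2 was the member that rose. CCNG2 (chromosome 4, 77157207 to 77170060, GRCh38) encodes cyclin G2, an atypical cyclin that is associated with cell cycle exit. It had 62.3, 27.9 and 30.3 CPM (counts per 1000000 of the scaled library) in bryostatin 1, 2 and 3, against 14.8, 13.99 and 16.6 CPM in DMSO 1, 2 and 3. Every bryostatin library was above every DMSO library, and bryostatin 1 was 2.14 times the mean of the other two. The log2 fold change was 1.41 ± 0.29 (SE, n = 3 against 3, edgeR adjusted p = 0.0356, range over the alternatives 6.63e-08 to 0.183). Without bryostatin 1 it was 0.94, a smaller size, with an adjusted p of 6.63e-08 by the same edgeR test on 2 against 3 libraries. The edgeR adjusted p rose to 0.0501 without bryostatin 3 and to 0.164, 0.183 and 0.151 without DMSO 1, 2 and 3, and limma-voom gave 0.0547. The gene overlaps LOC101928864 and has 1 named pseudogene in the RefSeq table, and reads shared with either could not be told apart here.

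CCNG1, the related cyclin G1 and a p53 target that acts on MDM2 through protein phosphatase 2A, had 194, 131 and 124 CPM in bryostatin 1, 2 and 3 against 105, 101 and 108 CPM in DMSO 1, 2 and 3. The groups did not overlap, and the log2 fold change of 0.52 ± 0.16 did not pass (edgeR adjusted p = 0.122). Without bryostatin 1 it was 0.29 with an edgeR adjusted p of 1.91e-04, and DESeq2 on all 6 libraries gave 0.0328.

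CDKN1A, the p21 inhibitor of cyclin-dependent kinases, had 67.6, 107 and 110 CPM in the bryostatin libraries and 97.0, 98.1 and 102 CPM in the DMSO libraries. Bryostatin 1 was the lowest of the 6 libraries and the other two were the highest, so the groups overlapped. The log2 fold change was -0.07 with a 95% interval of -0.45 to 0.32 (edgeR adjusted p = 0.875), and without bryostatin 1 it was 0.13 (edgeR adjusted p = 0.0680). BTG2, an antiproliferative partner of the mRNA deadenylase complex, showed the same layout, at 156, 209 and 211 CPM against 200, 199 and 200 CPM, with a log2 fold change of -0.06. Its relative BTG1 had 187, 141 and 140 CPM against 132, 131 and 139 CPM, with all bryostatin libraries above all DMSO libraries and bryostatin 1 the highest, and a log2 fold change of 0.22 (adjusted p = 0.364 by edgeR).

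GADD45A and GADD45B, growth arrest proteins induced by DNA damage and by NF-kB respectively, had log2 fold changes of -0.37 and 0.15, and neither passed (edgeR adjusted p = 0.346 and 0.650). GADD45A had 13.5, 8.03 and 8.74 CPM with bryostatin and 13.1, 13.3 and 12.7 CPM with DMSO. Bryostatin 2 and 3 were below, and bryostatin 1 above, all DMSO libraries. GADD45B had 11.5, 16.4 and 16.8 CPM against 14.1, 13.5 and 12.6 CPM, with bryostatin 1 now the lowest. Without bryostatin 1 the log2 fold change of GADD45A was -0.64 and that of GADD45B 0.31 (edgeR adjusted p = 2.28e-04 and 0.0210). The polo-like kinases PLK2 and PLK3 were low, with at most 3.22 and 5.44 CPM in any library and log2 fold changes of -0.40 and 0.36 (edgeR adjusted p = 0.630 and 0.285).

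**Figure D2:**
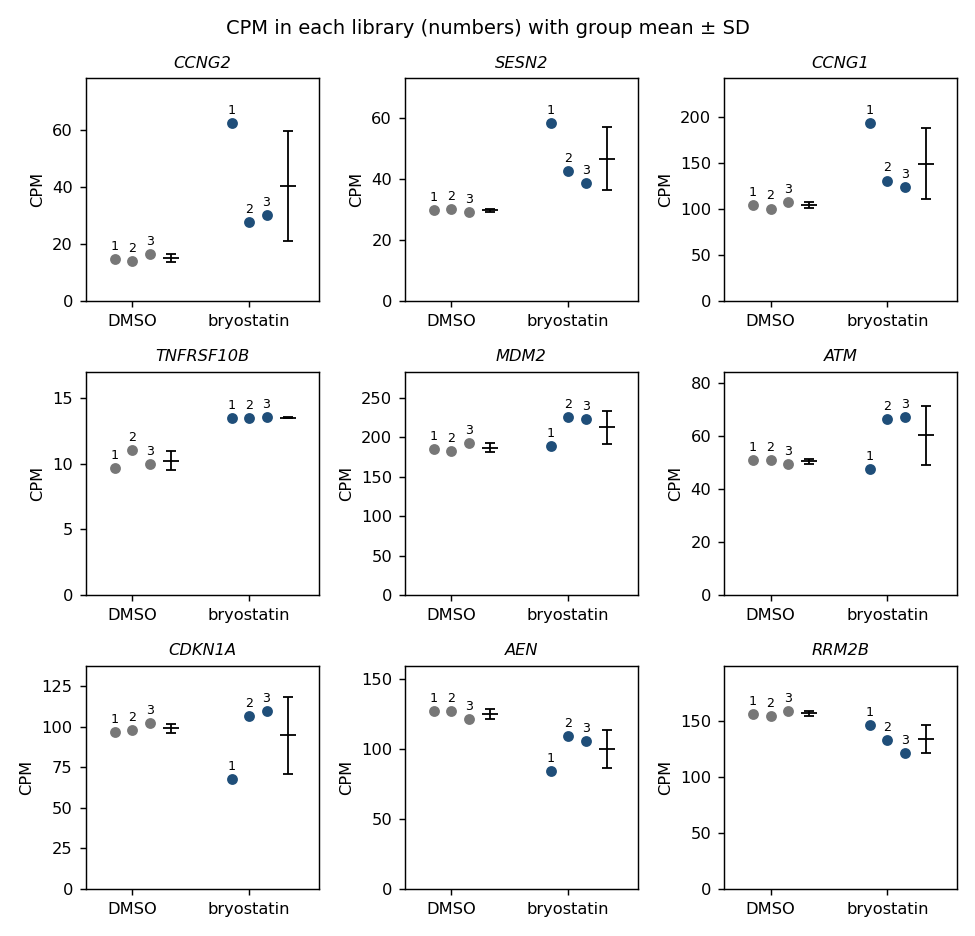
CPM of 9 members in each library (points, numbered by replicate) with the group mean ± SD (bars, n = 3 libraries). CCNG2, SESN2, CCNG1 and TNFRSF10B lie higher and AEN and RRM2B lower in every bryostatin library than in any DMSO library. Bryostatin 1 lies within the DMSO range for MDM2 and below it for ATM and CDKN1A.

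The inhibitors of p53 did not pass. MDM2, the ubiquitin ligase that degrades p53, had 189, 226 and 224 CPM in bryostatin 1, 2 and 3 against 186, 182 and 194 CPM in DMSO 1, 2 and 3. Bryostatin 2 and 3 were above all DMSO libraries and bryostatin 1 was among them. The log2 fold change was 0.19 with a 95% interval of -0.00421 to 0.38 (edgeR adjusted p = 0.278), and 0.26 without bryostatin 1 (edgeR adjusted p = 8.40e-05). MDM4, which binds and masks p53, had 21.8, 27.1 and 28.7 CPM against 21.2, 19.6 and 24.1 CPM, with log2 fold changes of 0.26 in all libraries and 0.37 without bryostatin 1 (edgeR adjusted p = 0.340 and 0.00333). The phosphatase PPM1D (WIP1), which switches the pathway off, had 33.2, 27.5 and 31.6 against 31.3, 30.7 and 29.4 CPM, and a log2 fold change of 0.01 with a 95% interval of -0.21 to 0.24.

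The damage-signalling genes did not pass either. ATM, the kinase activated by double-strand breaks, had 47.5, 66.4 and 67.3 CPM with bryostatin and 51.0, 51.0 and 49.4 CPM with DMSO. Here too bryostatin 1 was below and the other two above all DMSO libraries, with a log2 fold change of 0.26 (adjusted p = 0.350 by edgeR), or 0.40 without bryostatin 1 (edgeR adjusted p = 1.74e-05). The checkpoint kinase CHEK1 was the steadiest of the group, at 131 to 138 CPM with bryostatin and 130 to 136 CPM with DMSO, and its 95% interval on the log2 scale was -0.12 to 0.17. CHEK2 had a log2 fold change of 0.09 and the repair scaffold TP53BP1 -0.04. CHEK2 has 6 named pseudogenes in the RefSeq table, which could take or lend reads, so its value is uncertain.

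Of the genes for DNA repair and nucleotide supply none passed. RRM2B, the p53-inducible subunit of ribonucleotide reductase, had 146, 132 and 121 CPM against 156, 154 and 159 CPM, so every bryostatin library was below every DMSO library. Its log2 fold change was -0.23 (edgeR adjusted p = 0.169), and -0.30 without bryostatin 1 (edgeR adjusted p = 8.01e-05). The nucleotide excision repair sensors DDB2 and XPC had log2 fold changes of 0.10 and 0.15, and the translesion polymerase POLK -0.02. DDB2, which carries the adjacent p53 half-sites shown above, had 14.003, 10.02 and 10.7 CPM against 9.97, 11.0 and 11.5 CPM. The sign of its change turned to -0.06 without bryostatin 1.

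Among the metabolic members, SESN2 came closest to passing. Sestrin 2 restrains the growth kinase complex mTORC1 when leucine is scarce. SESN2 (chromosome 1, 28259518 to 28282491) had 58.4, 42.8 and 38.8 CPM in bryostatin 1, 2 and 3 against 29.9, 30.3 and 29.3 CPM in DMSO 1, 2 and 3. All bryostatin libraries were above all DMSO libraries, and the log2 fold change was 0.64 with a 95% interval of 0.30 to 0.99 (edgeR adjusted p = 0.0520, range over the alternatives 6.35e-05 to 0.230). It passed with DESeq2 (adjusted p = 0.00229), and without bryostatin 1 its log2 fold change was 0.45 (edgeR adjusted p = 6.35e-05). The relatives SESN1 and SESN3 had log2 fold changes of 0.23 and -0.05, both with overlapping groups. FDXR, the ferredoxin reductase of mitochondria, had -0.02, and TP53I3, a quinone oxidoreductase, had 0.14 at no more than 2.86 CPM.

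The death and survival genes differed in sign among themselves. TNFRSF10B, a death receptor for the ligand TRAIL, had 13.5, 13.5 and 13.6 CPM with bryostatin and 9.65, 11.0 and 9.99 CPM with DMSO, and bryostatin 1 did not stand apart. Its log2 fold change was 0.40 with and without that library (edgeR adjusted p = 0.0765 and 0.00854). TP53INP1, a stress protein of autophagy and apoptosis, had 11.1, 14.4 and 14.3 CPM against 11.0, 8.83 and 9.35 CPM, and a log2 fold change of 0.45 (adjusted p = 0.137 by edgeR).

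AEN, an apoptosis-enhancing nuclease, had 84.7, 110 and 106 CPM with bryostatin against 128, 127 and 121 CPM with DMSO, with no overlap and a log2 fold change of -0.32 (adjusted p = 0.131 by edgeR), or -0.22 without bryostatin 1 (edgeR adjusted p = 0.00213). TRIAP1, a mitochondrial survival factor, had 71.3, 58.8 and 60.8 CPM against 71.9, 77.8 and 71.3 CPM and a log2 fold change of -0.21 (adjusted p = 0.282 by edgeR). The RNA-binding protein gene ZMAT3 had 51.2, 78.9 and 86.6 CPM against 65.2, 65.3 and 69.0 CPM, with bryostatin 1 below and the other two above the DMSO libraries. The AKT inhibitor gene PHLDA3 had at most 2.23 CPM in any library and a log2 fold change of -0.62 with a wide 95% interval of -1.47 to 0.23.

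**Figure D3:**
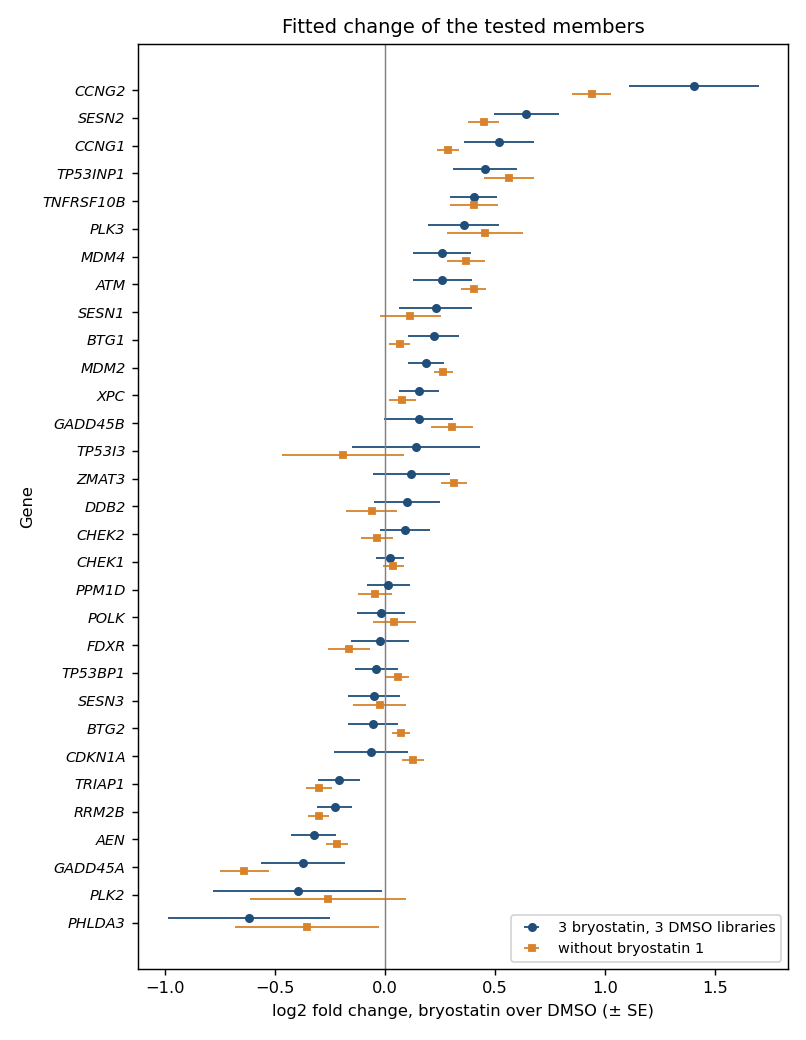
Fitted log2 fold change of each tested member (bryostatin over DMSO, bars ± SE) in all 6 libraries (circles) and without bryostatin 1 (squares), ordered by the first. CCNG2 is farthest right in both, at 1.41 and 0.94, and most other members lie within 0.5 of 0.

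In bryostatin 1 many members lay outside the range of the other 5 libraries, 12 above and 9 below of the 31, as did 33.7 and 33.4% of all tested genes. Without bryostatin 1 the edgeR test called 10 members higher and 4 lower, 32.3 and 12.9% of those tested, beside 13.8% of all genes called higher and 13.2% lower. The difference between the first pair of shares was not tested. The 10 were CCNG2, SESN2, CCNG1, MDM2, MDM4, ATM, GADD45B, TNFRSF10B, TP53INP1 and ZMAT3, and the 4 were GADD45A, RRM2B, AEN and TRIAP1. Of these 14, 12 changed by less than 1.5-fold, as did 81.8% of all genes called without that library. Over all libraries, 10 members had groups that did not overlap, 8 higher and 2 lower, which is 32.3% of members beside 27.8% of tested genes.

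The departure of bryostatin 1 moved with transcript length. Across 11088 tested genes, the log2 difference of bryostatin 1 from the mean of bryostatin 2 and 3 had a Spearman correlation of -0.52 with the relative transcript length implied by the deposited counts and FPKM, and across the 31 members one of -0.33. The same correlation for DMSO 1 against its group mates was 0.02 across all genes and 0.04 across the members. The genes share these libraries, so they are not independent. With the genes in 5 bins of length, the bin of longest genes had a median of -0.33 and that of shortest 0.31. Among long members ZMAT3 was at -0.69, ATM at -0.49 and MDM2 at -0.25, while SESN3 was at -0.07 and SESN1 at 0.33. Among short members TP53I3 was at 0.80 and GADD45A at 0.68, while CDKN1A was at -0.68 and GADD45B at -0.53. CCNG2 was at 1.10. The part of transcript length in the results above was not tested.

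**Figure D4:**
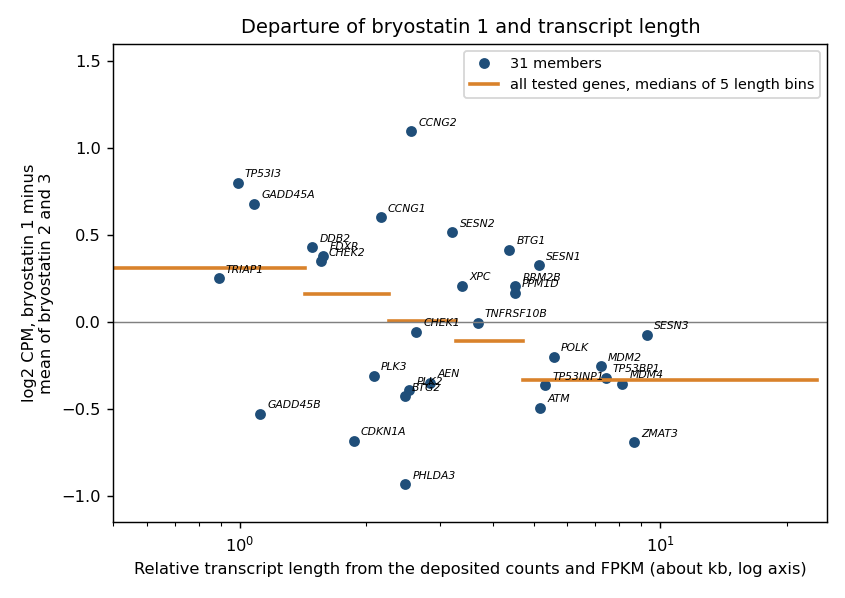
Log2 CPM of bryostatin 1 minus the mean of bryostatin 2 and 3 (vertical) against relative transcript length (horizontal, log axis), with 1 point for each of the 31 members and orange lines for the median of all tested genes in 5 bins of length. The lines descend from 0.31 to -0.33, and CCNG2 at 1.10 and PHLDA3 at -0.93 are the farthest points from 0.

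Several members are related in sequence, and 8 such pairs were compared by the log2 ratio of their CPM in each library. The ratio of CCNG1 to CCNG2 was 1.64, 2.24 and 2.03 in bryostatin 1, 2 and 3, against 2.82, 2.85 and 2.70 in DMSO 1, 2 and 3, a difference of -0.82 with no overlap. The ratio of SESN2 to SESN3 was 2.56, 1.91 and 2.04 against 1.47, 1.49 and 1.52, a difference of 0.68, and that of SESN1 to SESN2 differed by -0.40, both without overlap. For these 3 pairs the 2-sided exact permutation test gave p = 0.1, which is the smallest that 3 against 3 libraries allow, and an adjusted p of 0.267 over the 8 pairs. The other 5 pairs overlapped between groups. Among them PLK2 to PLK3 differed by -0.71, at low counts, and MDM2 to MDM4 by -0.07, or by -0.68 and -0.11 without bryostatin 1. The ratio of GADD45A to GADD45B was 0.23 in bryostatin 1 but -1.03 and -0.94 in bryostatin 2 and 3, against -0.10, -0.02 and 0.01 in DMSO, a difference of -0.54 with bryostatin 1 and -0.95 without it.

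Other genes of the pathway, taken from 5 further lists, mostly did not pass as well. Of 22 other p53 targets 20 were tested, with a median log2 fold change of 0.00 (-0.00106). Of these 2 rose, 0 fell and 18 did not pass, beside 3.72% of all tested genes called higher and 0.835% lower. Those 2 were FAS, the death receptor of Fas ligand, and TRIM22, which is also an interferon-inducible antiviral gene. FAS had 6.23, 7.22 and 6.71 CPM against 3.17, 2.31 and 1.90 CPM and rose 2.72-fold (edgeR adjusted p = 0.00754). TRIM22 had 16.2, 18.1 and 20.4 CPM against 8.72, 9.36 and 8.72 CPM and rose 2.04-fold (edgeR adjusted p = 0.00296). In both, bryostatin 1 was close to its group mates.

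Of 15 genes that modify or bind p53 or its inhibitors, 0 passed in edgeR, with 1 higher and 3 lower at p under 0.05 before adjustment. Over all tested genes, 18.7% were at an unadjusted edgeR p under 0.05 and 4.56% passed, in either direction. The co-repressor TRIM28 had the lowest p of that list, at a log2 fold change of -0.22, and the ribosomal protein gene RPL11, whose product can bind MDM2, followed at 0.25 (edgeR adjusted p = 0.162 and 0.163). Of 20 genes for sensing DNA damage and the checkpoint, 0 passed, with 1 higher and 1 lower at p under 0.05 before adjustment: NBN, a subunit of the break-sensing MRN complex, at 0.27, and the phosphatase CDC25A at -0.35 (edgeR adjusted p = 0.0708 and 0.103). Without bryostatin 1 the edgeR counts were 4 higher and 3 lower in the first of these lists, and 1 and 1 in the second, beside 13.8% of all genes higher and 13.2% lower in that fit. For the 20 other p53 targets they were 3 higher and 3 lower.

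Of 17 tested genes of the integrated stress response, the pathway of ATF4, 1 rose, 0 fell and 16 did not pass, with a median log2 fold change of 0.09. The riser was DDIT4, an inhibitor of mTORC1, with 53.04, 56.3 and 56.4 CPM against 43.5, 41.5 and 39.4 CPM (1.33-fold, edgeR adjusted p = 0.0274). The amino acid transporter chain SLC3A2 did not pass, with a fitted log2 difference of -0.25 (adjusted p = 0.128 by edgeR). Of 11 tested FOXO factors and FOXO target genes, 4 rose, 0 fell and 7 did not pass, with a median of 0.21, beside 3.72% of all tested genes called higher. Without bryostatin 1 the counts were 5 higher and 1 lower with a median of 0.15 for this list, and 3 higher and 2 lower for the integrated stress response. Over all genes in that fit 13.8% were called higher and 13.2% lower. Nothing particular to either list was tested. KLHL24, a ubiquitin ligase adaptor, rose by 0.48 on the log2 scale and BCL6, the germinal centre repressor, by 0.43 (edgeR adjusted p = 0.0120 and 0.00455). The other two, named after their values were seen, were FOXO4 with a rise of 1.67-fold and FOXO1 with one of 1.28-fold (edgeR adjusted p = 0.0234 and 0.0224). FOXO4 was low, at 7.09, 7.76 and 7.48 CPM against 4.88, 4.41 and 4.07 CPM.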

How the data were processed

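RNA from 6 libraries of the SC1 line was, per the labels' protocols, selected by oligo(dT) beads, primed at random and sequenced from both ends. The authors deposited 1 table of expected counts (estimates that share ambiguous reads among transcripts), FPKM and TPM. Without stating a role for any, the submitters' processing notes list GRCh38, DESeq2 1.40.2, RSEM 1.2.28 and HISAT2 2.2.1, and the annotation and use of strand are not given in the sources used here. Without strand, members that overlap neighbours on the genome, such as ATM, POLK and TNFRSF10B, are uncertain.

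Rounded counts entered the 2-sided quasi-likelihood test of edgeR 4.0.16 (R 4.3.3) with TMM factors (0.952 to 1.02), filterByExpr and a robust fit. The p-values were adjusted by Benjamini-Hochberg over all 11613 genes kept, and calls were made under 0.05. The SE is the log2 fold change over the root of F. FPKM served only with the counts to give relative transcript lengths (genes with a mean of at least 0.3 FPKM in DMSO, and 0.1 added to CPM). Alternatives used other scaling factors, filters, limma 3.58.1, DESeq2 1.42.0, TPM with a pseudocount of 0.5 or 1, a replicate block and each library left out. The fit was tested on simulated data. Chi-square per gene was 2.73 to 40.9 between libraries of a group, so none was a duplicate. Of the table's identifiers 15767 matched the RefSeq table that gave coordinates (1-based). All 32 members are named, with the 2 genes of lowest p from each of the 5 other lists. Members and lists were chosen with earlier results of these data known. The length relation and promoter motifs were added after the data were seen.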

Additional observations from a re-analysis of the deposited data

How the results depend on the processing

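Of 527 values for single members under the alternatives, 449 kept their sign and their side of the threshold. Another 36 passed newly, 5 no longer passed (all CCNG2) and 37 changed sign. Against 1 member higher and 0 lower, with a median log2 fold change of 0.0994, library size alone gave 2 higher and a median of 0.0566, no filter 2 higher, DESeq2 3 higher, and limma-voom 0 (5 higher and 3 lower at p under 0.05 before adjustment, and CCNG2 at an adjusted p of 0.0547). Of all tested genes, these settings called 3.26, 2.77, 5.62 and 3.5% higher, in that order. With library quality weights 11 were higher and 4 lower, beside 13.9% of all tested genes higher and 12.3% lower, and the members' median was 0.0595. On TPM values 2 were higher and 1 lower with either pseudocount, with medians of -0.0244 and -0.0234, beside -0.0908 and -0.0822 for all tested genes. The shares of all tested genes on TPM were 2.32 and 2.29% higher and 1.7 and 1.68% lower. Leaving out 1 library gave 0 to 10 higher, 0 to 4 lower and a median of 0.0460 to 0.106. In those fits 1.09 to 13.8% of all tested genes were called higher and 0.0851 to 13.2% lower. The 10 and 4 came without bryostatin 1 (median 0.0658), and the 0 higher without DMSO 1, 2 or 3, where 5, 4 and 4 members were higher at an unadjusted p under 0.05. The 1 higher without bryostatin 3 was SESN2 in place of CCNG2. The cause of these moves was not tested.

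Sign changes, with log2 fold changes from the altered fits, were as follows, except for ZMAT3 all in members that passed under none of the alternatives. With library size alone PPM1D and CHEK1 had -0.0268 and -0.0172. With quality weights PPM1D, CHEK2, TP53BP1, CDKN1A, BTG2, DDB2, POLK and TP53I3 had -0.0367, -0.0287, 0.0464, 0.110, 0.0595, -0.0305, 0.0331 and -0.145. On TPM with a pseudocount of 0.5 PPM1D, CHEK1, CHEK2, DDB2, TP53I3 and ZMAT3 had -0.0790, -0.0608, -0.0217, -0.0244, -0.0488 and -0.0123, and with 1 they had -0.0753, -0.0603, -0.0213, -0.0234, -0.0393 and -0.00940. With 1 library left out the range was -0.0455 to 0.0872 for PPM1D, -0.0376 to 0.157 for CHEK2, -0.119 to 0.0578 for TP53BP1, -0.197 to 0.126 for CDKN1A, -0.138 to 0.0716 for BTG2, -0.0601 to 0.194 for DDB2, -0.0635 to 0.0422 for POLK, -0.191 to 0.347 for TP53I3, -0.163 to 0.0617 for FDXR and -0.0420 to 0.313 for ZMAT3.

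No pairing of libraries by replicate number was seen, though so few libraries cannot exclude one. Deviations of same-numbered libraries from their group means had correlations of -0.21, -0.17 and 0.03, beside -0.19 to 0.23 for differently numbered ones. The replicate block gave 1 member higher and 0 lower, with CCNG2 at 1.32 on the log2 scale. Over all genes it gave 284 higher and 54 lower against 432 and 97. Depth limits what could be seen for the members with at most 5.44 CPM in any library, PLK2, PLK3, TP53I3, PHLDA3 and SPATA18.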
